A study of Mus musculus with 8 samples.

Results

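The report concerns the nuclear genes for subunits of respiratory complexes I, II, III and V. They were taken from the count table by symbol, as Nduf genes of the a, b, c, s and v series, Sdha to Sdhd, Uqcr genes and Atp5 genes of the a to o series. This gave 64 of 23420 genes, of which, by symbol alone, 37 were placed in complex I, 4 in complex II, 8 in complex III and 15 in complex V. Enough reads for a test were found for 63 of them. The remaining gene, Ndufs5, had 0 counts in all 8 libraries.

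The cells were C2C12, mouse myoblasts that form multinucleate myotubes in low serum. AUF1-overexpressing cells and WT cells had all spent 48 h in medium with 2% horse serum, after growth in 10% fetal bovine serum. AUF1 is an RNA-binding protein encoded by Hnrnpd, known for binding AU-rich elements in mRNA. Heavy polysome RNA, which is cytoplasmic mRNA carrying many ribosomes, and total RNA were sequenced from each genotype. This gave AUF1 total, WT total, AUF1 polysome and WT polysome groups of 2 libraries each. The sources used here do not give the vector or promoter used for AUF1, whether WT cells carried an empty vector, or whether either line was a pool or a clone, and AUF1 and line cannot be told apart. Since the labels do not say that replicates came from separate cultures, the spread behind each p-value is that of these libraries only and may be technical.

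Respiratory complexes sit in the inner mitochondrial membrane. Complex I (NADH dehydrogenase) and complex II (succinate dehydrogenase, also an enzyme of the citric acid cycle) pass electrons to ubiquinone. Complex III passes them on to cytochrome c, and complex V uses the proton gradient to make ATP. Most subunits are encoded in the nucleus, and a few of complexes I, III and V in mitochondrial DNA. Muscle cells are known to gain mitochondria as they differentiate.

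Promoters of 54 of the 64 genes were found in the RefSeq table for GRCm38.p6, each spanning 250 bases before to 50 bases after the transcription start. They were searched on both strands for motifs of factors known for control of respiratory genes. The NRF1 consensus, whose matches are in capitals in the Sdha and Uqcrc1 promoters, was in 15 of the 54 promoters (27.78%), against 10.35% of promoters of tested genes and 4.78% of all 27025 promoters. The motif of ETS factors such as GABP, CCGGAAG, was in 12 (22.22%), against 17.72% and 9.12%. The YY1 motif, in capitals in the Ndufa9 promoter, was in 4 (7.41%), against 1.63% and 0.7%, and the motif of estrogen-related receptors, TNAAGGTCA, in 3 (5.56%), against 0.7% and 1.26%. No matches within a member's promoter overlapped.

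The 4 promoters printed here belong to mRNAs that were higher in AUF1 cells when replicate number was in the model. Among the subunits called that way, Uqcrc1 held the most matches in complex III, while Ndufa9 tied with Ndufs8 in complex I and Sdha with Sdhd in complex II, where the smaller p decided. None of the complex V subunits called had a match, and Uqcrfs1 had the smallest p of all. Sequences are 5′ to 3′ on the gene's strand, with motif matches in capitals. Ndufa9 (chr6:126849095-126849394, minus strand) has 1 YY1 match starting 30 bases into the transcript. Sdha (chr13:74350191-74350490, minus strand) has 3 NRF1 matches, which start at -98, -55 and -10 from the transcription start. Uqcrc1 (chr9:108936398-108936697, plus strand) has 2 NRF1 matches, starting at bases 6 and 31 of the transcript. Uqcrfs1 (chr13:30545267-30545566, minus strand) has none of the 4 motifs.
Ndufa9: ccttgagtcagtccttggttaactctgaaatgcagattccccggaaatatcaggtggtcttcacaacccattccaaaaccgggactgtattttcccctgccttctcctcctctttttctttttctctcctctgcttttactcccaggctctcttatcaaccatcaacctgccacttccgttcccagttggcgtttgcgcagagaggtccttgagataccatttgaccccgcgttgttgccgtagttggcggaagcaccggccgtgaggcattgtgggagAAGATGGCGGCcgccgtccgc
Sdha: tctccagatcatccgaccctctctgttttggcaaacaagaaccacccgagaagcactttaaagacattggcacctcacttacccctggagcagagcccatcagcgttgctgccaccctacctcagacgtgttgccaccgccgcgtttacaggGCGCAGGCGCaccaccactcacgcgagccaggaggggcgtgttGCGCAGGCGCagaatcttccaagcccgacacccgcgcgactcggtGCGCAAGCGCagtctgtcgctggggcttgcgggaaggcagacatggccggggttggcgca
Uqcrc1: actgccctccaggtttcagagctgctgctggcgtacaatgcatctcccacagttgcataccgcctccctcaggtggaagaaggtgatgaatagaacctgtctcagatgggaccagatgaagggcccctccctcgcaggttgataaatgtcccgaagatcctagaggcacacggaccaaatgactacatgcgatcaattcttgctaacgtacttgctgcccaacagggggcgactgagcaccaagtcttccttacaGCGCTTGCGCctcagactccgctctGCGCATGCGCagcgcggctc
Uqcrfs1: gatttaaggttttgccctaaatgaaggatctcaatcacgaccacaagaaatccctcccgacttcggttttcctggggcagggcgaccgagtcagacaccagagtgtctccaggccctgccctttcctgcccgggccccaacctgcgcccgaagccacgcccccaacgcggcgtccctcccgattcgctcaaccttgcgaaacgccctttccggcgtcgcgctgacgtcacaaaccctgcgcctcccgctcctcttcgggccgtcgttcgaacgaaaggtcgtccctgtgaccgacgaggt

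A match is a description of letters and no evidence of binding. Among subunits with a promoter in the table, the 14 tested ones with an NRF1 match had a median log2 fold change, AUF1 over WT, of 0.65 in total RNA and 0.51 on polysomes. The 39 without one had 0.48 and 0.41. With an ETS match (12 genes) the medians were 0.62 and 0.49, and without (41 genes) 0.50 and 0.43.

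Libraries held 25281224 to 34917660 counts in genes, and subunit genes took 0.753% to 1.42% of them. These unscaled shares were 1.42% and 1.19% in AUF1 total libraries, against 0.961% and 0.870% in WT total libraries. On polysomes they were 1.09% and 1.36% in AUF1 cells, against 0.753% and 0.999% in WT cells. Hnrnpd, the overexpressed gene, had 448 and 397 CPM (counts scaled by TMM library size) in AUF1 total libraries, against 64.2 and 99.6 in WT total libraries. On polysomes it had 549 and 427 CPM in AUF1 cells, against 106 and 131 in WT cells. The AUF1 over WT difference in Hnrnpd was thus 2.37 ± 0.32 (log2, SE) in total RNA (adjusted p = 0.0413) and 2.04 ± 0.32 on polysomes (adjusted p = 0.0608). Libraries separated by replicate number on the first principal component (44.64% of variance) and by genotype on the second (37.09%). For that reason results are given from a model without the number and, where it changes a call, with the number as an additive block.

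Levels summed over the myotube list separated the genotypes. Summed over 9 myotube genes found in the table, levels were 31188 and 24136 CPM in AUF1 total libraries, against 5219 and 5736 in WT total libraries. On polysomes they were 22246 and 25696 CPM in AUF1 cells, against 4472 and 6566 in WT cells. Only Tmem8c among these genes overlapped between genotypes, in both fractions. In total RNA it had 2418 and 186 CPM in AUF1 cells, against 370 and 47.7 CPM in WT cells. Fibroblast genes (8 genes) summed to 1070 and 312 CPM in AUF1 total, against 3759 and 494 in WT total. Their polysome sums were 526 and 320 CPM in AUF1 cells, against 2145 and 519 in WT cells. The genotypes overlapped and replicate 1 was higher in each group. Within each replicate number the WT sum was the higher one, in both fractions. Adipocyte, osteoblast and chondrocyte, immune and endothelial lists each summed to at most 5.09 CPM in any library, with Plin1, Lep and Ibsp at 0 throughout, and neuronal and glial genes to 35.4 to 104 CPM. The part of differentiation state in the subunit results was not tested. In bulk RNA, more cells of a type and more RNA per cell cannot be told apart.

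Total RNA from AUF1 cells held more mRNA for nearly every subunit than total RNA from WT cells, though no subunit passed the test without replicate number. Log2 fold changes were above 0 for 59 of 63 subunits, with a median of 0.59 and a range of -0.25 to 1.69. Over all 13167 genes tested the median was 0.002, which TMM scaling tends to bring near 0. Within replicate 1 the subunits' median was 0.63 and within replicate 2 it was 0.47, and 56 subunits were above 0 in both. Both AUF1 libraries lay above both WT libraries for 38 subunits, and for 0 both lay below. Higher, non-overlapping libraries were found for 22.5% of all genes tested. The median depended on single libraries. Without AUF1 total replicate 1 it was 0.24, and without the other libraries in turn it lay between 0.43 and 0.77.

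None of the 63 subunits passed an adjusted p of 0.05 in the model without replicate number (edgeR quasi-likelihood test, Benjamini-Hochberg over all genes), in which 1.02% of all genes were called. At an unadjusted p under 0.05 there were 14 higher and 0 lower, where 8.17% of all genes were higher. DESeq2 called 1 higher, Atp5a1 (adjusted p = 0.0376), where it called 3.51% of 13952 genes higher. With the replicate block 11 were called higher and 0 lower, against 6.99% of all genes called higher. These 11 were Ndufv1, Ndufs8, Ndufa10 and Ndufa9 of complex I, Sdhb of complex II, Uqcrfs1 and Uqcrc1 of complex III, and Atp5a1, Atp5b, Atp5f1 and Atp5g1 of complex V.

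**Figure D1:**
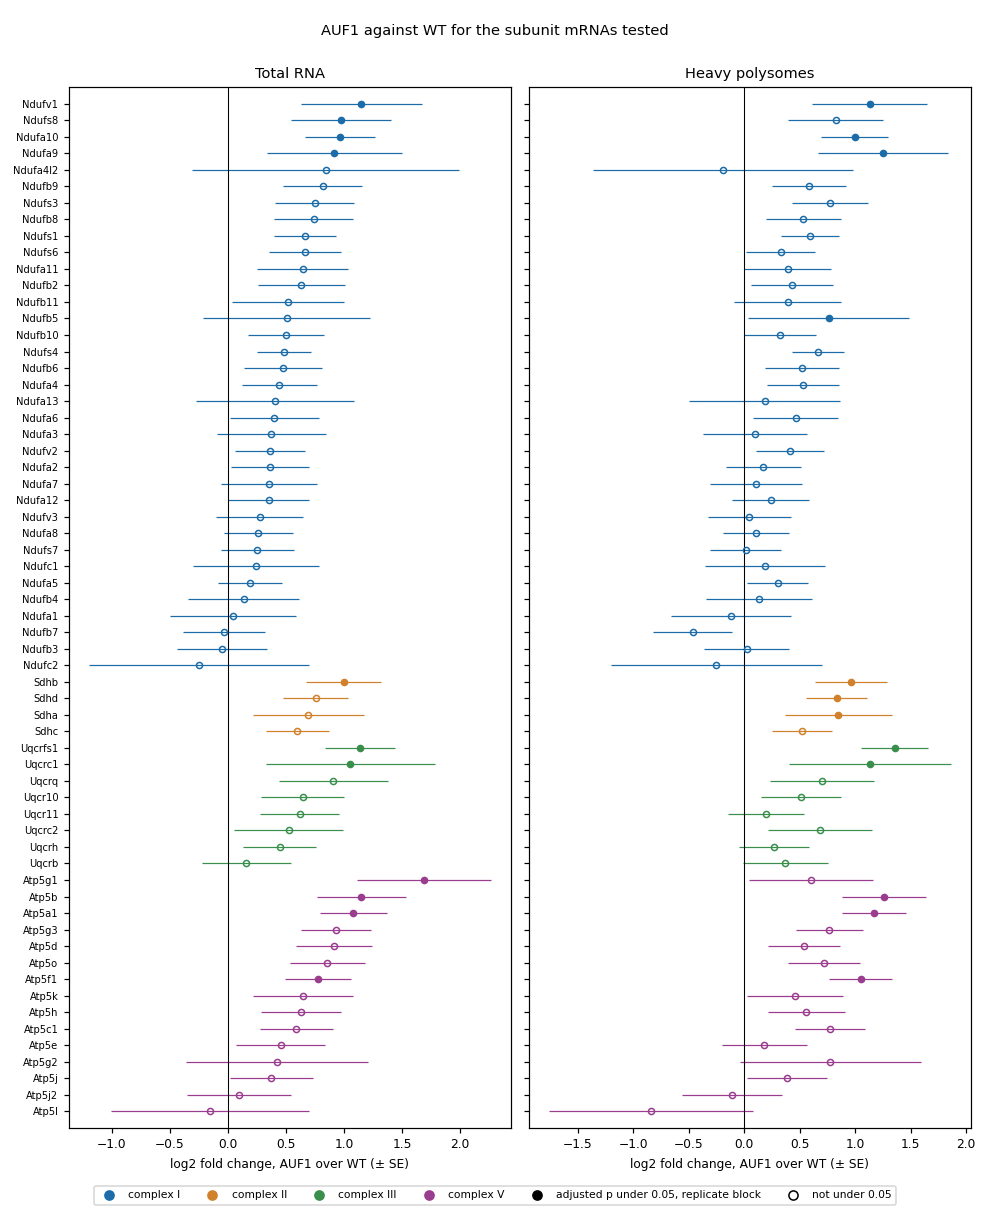
Log2 fold change of 62 of the 63 tested subunit mRNAs, AUF1 over WT (x axis, ± SE), in total RNA on the left and heavy polysome RNA on the right, grouped by complex and ordered by the total RNA value. Filled points, 11 in total RNA and 12 on polysomes, had an adjusted p under 0.05 with replicate number as a block; 58 and 56 of the points drawn lie right of 0.

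On heavy polysomes too, most subunit mRNAs had higher values in AUF1 cells. Log2 fold changes were above 0 for 57 of 63, with a median of 0.51 and a range of -0.84 to 1.35, against a median of 0.002 over all genes. Within replicates 1 and 2 the medians were 0.49 and 0.43, and 53 subunits were above 0 in both. Non-overlapping, higher AUF1 libraries were found for 27 subunits, and lower for 0. Of all genes tested, 23.6% were higher without overlap. Without AUF1 polysome replicate 2 the median was 0.28, without WT polysome replicate 1 it was 0.32, and without the others in turn it lay between 0.42 and 0.73.

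In the model without replicate number 0 subunits were called on polysomes, where 0.349% of all genes were, and 11 were higher and 0 lower at an unadjusted p under 0.05, where 7.85% of all genes were higher. DESeq2 called 2 higher, Atp5a1 (adjusted p = 0.0114) and Uqcrfs1 (adjusted p = 0.0189), and 3.25% of all genes. With the block 12 were called higher and 0 lower, against 6.69% of all genes called higher. Of these 12, 9 were also among the 11 of total RNA, namely Ndufv1, Ndufa10, Ndufa9, Sdhb, Uqcrfs1, Uqcrc1, Atp5a1, Atp5b and Atp5f1. Called on polysomes but not in total RNA were Ndufb5, Sdha and Sdhd. Called in total RNA but not on polysomes were Ndufs8 and Atp5g1. Both lists come from the same fit, and the labels do not say whether the fractions came from separate cultures. The lists may therefore not be independent. The difference between RNA fractions is tested separately below.

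**Figure D2:**
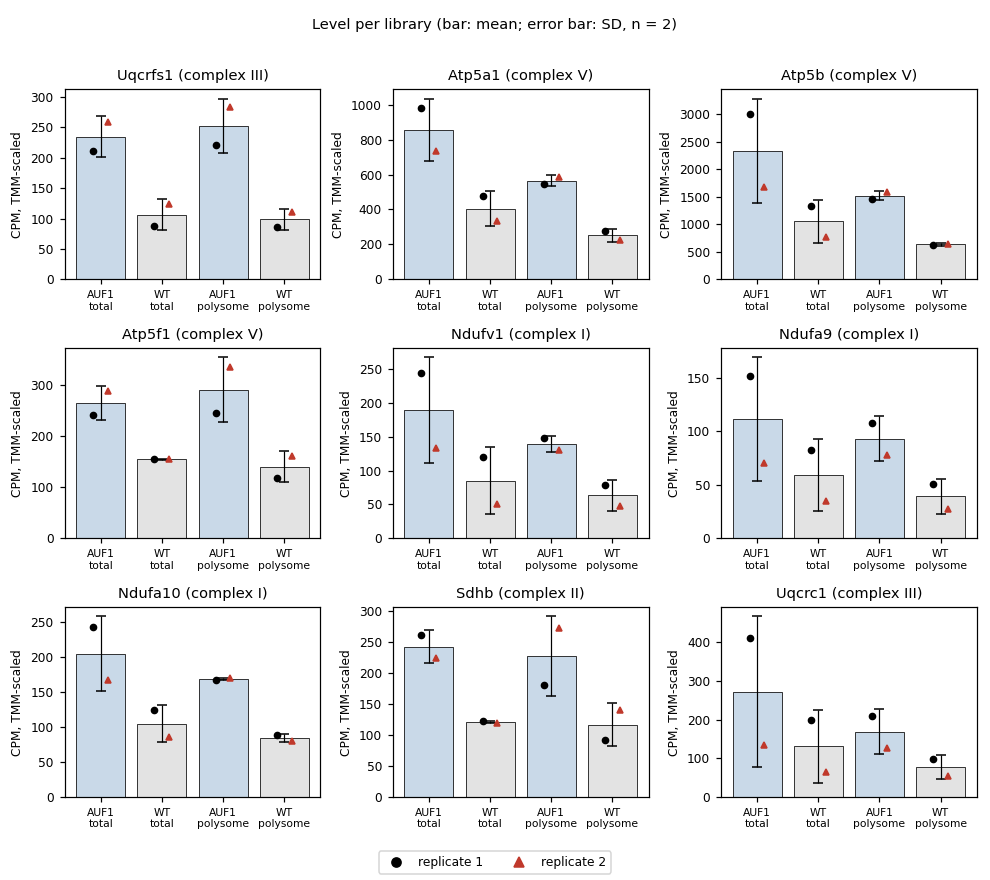
Level in every library of the 9 subunit mRNAs chosen because they were called higher with the block in both fractions. Levels are CPM scaled by TMM (y axis from 0), for AUF1 total, WT total, AUF1 polysome and WT polysome RNA. Bars are means, error bars SD (n = 2), circles replicate 1 and triangles replicate 2; in each panel both AUF1 polysome points lie above both WT polysome points, while Ndufa9 and Uqcrc1 overlap in total RNA.

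Complex I takes electrons from NADH in its N module, carries them through iron-sulfur clusters, and pumps protons in a membrane arm built partly of accessory subunits. Its 36 tested mRNAs had medians of 0.46 in total RNA and 0.36 on polysomes (log2, AUF1 over WT), and 33 and 32 of them were above 0. Complexes II, III and V together, with 27 mRNAs, had 0.65 and 0.68. Ndufv1, the subunit that binds FMN and NADH, had 244 and 134 CPM in AUF1 total libraries, against 120 and 50.6 CPM in WT total libraries. On polysomes it had 147 and 130.3 CPM in AUF1 cells, against 79.3 and 47.4 CPM in WT cells. Replicate 1 was above replicate 2 in each group, and AUF1 libraries did not overlap WT libraries in either fraction. Log2 fold changes were 1.15 ± 0.52 in total RNA (adjusted p = 0.411, and 0.0200 with the block) and 1.13 ± 0.52 on polysomes (adjusted p = 0.410, and 0.0191 with the block).

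Ndufs1, the large iron-sulfur subunit of the N module, had 58.1 and 71.7 CPM in AUF1 total libraries and 41.7 and 40.2 CPM in WT total libraries. Its polysome levels were 58.96 and 60.02 CPM in AUF1 cells and 45.1 and 33.8 CPM in WT cells. The groups did not overlap in either fraction, and neither difference passed in any model (0.66 ± 0.26 and 0.59 ± 0.26; adjusted p = 0.343 and 0.393). Ndufs8, which holds iron-sulfur clusters near the ubiquinone site, had 225 and 125 CPM in AUF1 total libraries, against 118 and 60.3 CPM in WT total libraries. Its log2 fold change was 0.98 ± 0.43 (adjusted p = 0.398, and 0.0414 with the block). On polysomes Ndufs8 had 155 and 153 CPM in AUF1 cells, against 98.3 and 75.7 CPM in WT cells, a difference of 0.82 ± 0.43 that did not pass (adjusted p = 0.473, and 0.0649 with the block). Ndufs3, a core subunit of the ubiquinone module, had log2 fold changes of 0.75 ± 0.34 in total RNA and 0.77 ± 0.34 on polysomes, and neither passed. The core subunits Ndufs7 and Ndufv2 had smaller differences. Ndufs7 stood at 0.26 ± 0.32 and 0.01 ± 0.32 and Ndufv2 at 0.36 ± 0.31 and 0.41 ± 0.31, none of which passed.

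Among accessory subunits, Ndufa9 and Ndufa10 differed most. Ndufa9 had 152 and 70.4 CPM in AUF1 total libraries, against 82.9 and 35.2 CPM in WT total libraries, and the groups overlapped. On polysomes Ndufa9 had 108 and 78.1 CPM in AUF1 cells, against 50.8 and 27.5 CPM in WT cells, without overlap. The log2 fold changes were 0.92 ± 0.58 and 1.25 ± 0.59 (adjusted p = 0.0396 and 0.00959 with the block, 0.58 and 0.422 without). Ndufa10 had 242 and 167 CPM in AUF1 total libraries, against 124 and 85.9 CPM in WT total libraries, and 167 and 170 CPM in AUF1 polysomes, against 88.4 and 80.8 CPM in WT polysomes. Its differences were 0.96 ± 0.30 and 0.99 ± 0.30 (adjusted p = 0.0257 and 0.0212 with the block, 0.226 and 0.219 without). Its AUF1 libraries lay above its WT libraries in both fractions. Ndufb5, of the membrane arm, had 123 and 53.0 CPM in AUF1 polysomes, against 75.1 and 28.7 CPM in WT polysomes. The groups overlapped, and its 0.76 ± 0.72 passed with the block (adjusted p = 0.0389) and not without (0.772).

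Several complex I subunits showed no such difference. Ndufc2, an accessory subunit of the membrane arm, had 61.5 and 12.3 CPM in AUF1 total libraries and 65.7 and 21.9 CPM in WT total libraries. In polysomes it had 52.3 and 18.7 CPM in AUF1 cells and 59.3 and 25.2 CPM in WT cells. In every group Ndufc2 followed replicate number far more than genotype, and its log2 fold changes were -0.25 ± 0.95 in both fractions. Ndufb7 had 325 and 197 CPM in AUF1 total libraries, against 298 and 236 CPM in WT total libraries, and 211 and 279 CPM in AUF1 polysomes, against 278 and 398 CPM in WT polysomes. Its polysome value, -0.47 ± 0.35, was the lowest of complex I and did not pass (adjusted p = 0.679). Ndufb3, Ndufa1, Ndufb4 and Ndufa5 lay between -0.05 and 0.19 in total RNA.

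A pair of related genes differed greatly in level, with 901 CPM per coding kb for Ndufa4 and 2.52 for Ndufa4l2, averaged over the libraries. By their symbols both are included in the counts, medians and sums of complex I. Ndufa4, first described in complex I and later found with cytochrome c oxidase, had 311 and 207 CPM in AUF1 total libraries and 229.6 and 151 CPM in WT total libraries. On polysomes it had 251 and 266 CPM in AUF1 cells and 159.7 and 198 CPM in WT cells. Its log2 differences of 0.44 ± 0.33 and 0.53 ± 0.33 did not pass. Ndufa4l2, a relative known for induction in hypoxia, had 0.666 and 1.41 CPM in AUF1 total libraries and 0.122 and 1.02 CPM in WT total libraries. In polysomes it had 0.218 and 0.737 CPM in AUF1 cells and 0.199 and 0.889 CPM in WT cells. Replicate 1 was the lower one in each group, and the log2 fold changes were 0.84 ± 1.15 and -0.19 ± 1.17, or 1.14 ± 0.57 and -0.12 ± 0.60 with the block, none of which passed. For Ndufs5, a count of 0 allows up to 0.0852 to 0.122 CPM per library, taking 3 counts as the limit (counting error only). BC002163, a pseudogene whose copy of the Ndufs5 coding sequence is 99.37% identical, had 619 and 595 counts in AUF1 total and 428 and 468 in WT total. On polysomes BC002163 had 609 and 784 counts in AUF1 cells and 524 and 737 in WT cells. Whether these reads came from Ndufs5 was not tested.

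Complex II is the smallest complex and wholly nuclear-encoded. Its 4 mRNAs were above 0 in both fractions and within both replicate numbers, with medians of 0.73 in total RNA and 0.84 on polysomes. Sdhb, the iron-sulfur subunit, had 261 and 223 CPM in AUF1 total libraries, against 123 and 120.1 CPM in WT total libraries. On polysomes Sdhb had 181 and 272 CPM in AUF1 cells, against 92.2 and 141 CPM in WT cells. Neither fraction overlapped, and the log2 fold changes were 1.00 ± 0.32 and 0.96 ± 0.32 (adjusted p = 0.242 and 0.255, and 0.0370 and 0.0423 with the block).

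Sdha, the flavoprotein that oxidizes succinate, had 195 and 117 CPM in AUF1 total libraries and 129.6 and 63.2 CPM in WT total libraries. In polysomes it had 128 and 93.5 CPM in AUF1 cells, against 77.5 and 45.9 CPM in WT cells. Libraries overlapped in total RNA and not on polysomes, with 0.69 ± 0.48 and 0.85 ± 0.48 (adjusted p = 0.622 and 0.526, and 0.0620 and 0.0313 with the block). The membrane anchors Sdhc and Sdhd completed the complex. Sdhd had 299 and 219 CPM in AUF1 total libraries, against 179 and 128 CPM in WT total libraries. Its polysome levels were 275 and 291 CPM in AUF1 cells, against 159 and 159 CPM in WT cells, so the groups were apart in both fractions. Its log2 fold changes were 0.76 ± 0.28 and 0.83 ± 0.28 (adjusted p = 0.300 and 0.254, and 0.0629 and 0.0448 with the block). Sdhc had 333 and 239.9 CPM in AUF1 total libraries and 213 and 164 CPM in WT total libraries, with 296 and 329 CPM in AUF1 polysomes and 211 and 225 CPM in WT polysomes. Sdhc did not pass in any model (0.60 ± 0.27 and 0.52 ± 0.27).

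Complex III moves electrons from ubiquinol to cytochrome c through the Rieske iron-sulfur protein and cytochromes. Its 8 mRNAs were all above 0 in both fractions, with medians of 0.63 in total RNA and 0.59 on polysomes. Uqcrfs1, the Rieske protein, had 210.5 and 259 CPM in AUF1 total libraries, against 88.6 and 124 CPM in WT total libraries. On polysomes Uqcrfs1 had 220.4 and 284 CPM in AUF1 cells, against 86.8 and 110.5 CPM in WT cells. AUF1 libraries were well apart from WT libraries in both fractions, and replicate 2 was the higher one in each group. The log2 fold changes were 1.14 ± 0.30 (adjusted p = 0.160, and 0.00648 with the block) and 1.35 ± 0.30 (adjusted p = 0.117, and 0.00312 with the block), a 2.21-fold and a 2.56-fold difference.

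Uqcrc1, a core protein of complex III, had 410.4 and 135 CPM in AUF1 total libraries and 198 and 64.3 CPM in WT total libraries. On polysomes Uqcrc1 had 209.9 and 128 CPM in AUF1 cells, against 98.7 and 55.7 CPM in WT cells. In AUF1 and in WT cells alike, the replicates differed more than 2-fold in total RNA. Yet within each number the AUF1 library was higher, by 1.05 and 1.07 on the log2 scale in total RNA and by 1.09 and 1.20 on polysomes. With the block Uqcrc1 passed in both (adjusted p = 0.0384 and 0.0267), and without it in neither (0.621 and 0.596). Uqcrc2, the other core protein, had 135 and 71.6 CPM in AUF1 total libraries and 89.3 and 53.9 CPM in WT total libraries. In polysomes Uqcrc2 had 108 and 59.6 CPM in AUF1 cells and 59.7 and 44.8 CPM in WT cells. Its 0.53 ± 0.47 and 0.68 ± 0.47 did not pass. Uqcrb, a small subunit at the ubiquinone-binding part, had 27.4 and 45.1 CPM in AUF1 total libraries and 27.0 and 37.9 CPM in WT total libraries. On polysomes it had 43.8 and 54.9 CPM in AUF1 cells and 30.3 and 46.2 CPM in WT cells, and it had the lowest total RNA value of the complex, 0.16 ± 0.38. Uqcrq, Uqcr10, Uqcr11 and Uqcrh had values of 0.45 to 0.91 in total RNA and 0.20 to 0.70 on polysomes, and none passed. Cytochrome c1 (Cyc1), also in complex III but outside the symbols used here, stood at 1.46 ± 0.40 and 1.20 ± 0.39 (adjusted p = 0.167 and 0.248, and 0.00780 and 0.0171 with the block).

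Complex V is a rotary ATP synthase with a catalytic head of alpha and beta subunits, a central stalk, a peripheral stalk and a ring of c subunits in the membrane. Its 15 mRNAs had medians of 0.65 in total RNA and 0.60 on polysomes, and 14 and 13 were above 0. In the head, Atp5b (beta subunit; chr10:128083273-128090391, GRCm38) had 3004 and 1668 CPM in AUF1 total libraries, against 1328 and 776 CPM in WT total libraries. On polysomes Atp5b had 1464 and 1577 CPM in AUF1 cells, against 619 and 649.8 CPM in WT cells. The groups were apart in both fractions, more clearly on polysomes, with 1.15 ± 0.38 and 1.26 ± 0.38 (adjusted p = 0.248 and 0.219, and 0.0345 and 0.0228 with the block). Atp5a1 (alpha subunit) had 983 and 732 CPM in AUF1 total libraries, against 475 and 335 CPM in WT total libraries. In polysomes Atp5a1 had 544 and 586 CPM in AUF1 cells, against 276 and 227 CPM in WT cells. Atp5a1 was the subunit called by both the block (adjusted p = 0.0154 and 0.0104) and DESeq2 in both fractions, at 1.08 ± 0.29 and 1.17 ± 0.29, though not in the model without the number (adjusted p = 0.165 and 0.146).

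Atp5f1, subunit b of the peripheral stalk, had 241 and 289 CPM in AUF1 total libraries, against 156 and 154 CPM in WT total libraries. On polysomes Atp5f1 had 245 and 336 CPM in AUF1 cells, against 119 and 162 CPM in WT cells, and the groups were apart in both fractions. Its log2 fold changes were 0.77 ± 0.28 and 1.05 ± 0.28 (adjusted p = 0.0495 and 0.0139 with the block, 0.296 and 0.176 without). The central stalk subunits Atp5c1, Atp5d and Atp5e and the stalk subunit Atp5o (OSCP) had log2 fold changes of 0.46 to 0.91 in total RNA and 0.18 to 0.77 on polysomes, none of which passed.

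Subunit c of the ring has 3 genes for the same mature protein. Per coding kb and averaged over the libraries, Atp5g3 had 1468 CPM, Atp5g1 7.18 and Atp5g2 1.10. Atp5g3 had 906 and 652 CPM in AUF1 total libraries, against 443 and 374 CPM in WT total libraries, and 718 and 915 CPM in AUF1 polysomes, against 398 and 561 CPM in WT polysomes. Atp5g3 libraries did not overlap, and its 0.93 ± 0.30 and 0.77 ± 0.30 did not pass (adjusted p = 0.244 and 0.328, and 0.0554 and 0.101 with the block). Atp5g1 had 5.82 and 2.96 CPM in AUF1 total libraries, against 1.13 and 1.58 CPM in WT total libraries, the highest subunit value at 1.69 ± 0.57 (adjusted p = 0.260, and 0.0498 with the block). On polysomes Atp5g1 had 2.33 and 4.87 CPM in AUF1 cells and 1.82 and 2.92 CPM in WT cells, with overlap. Atp5g2 had 0.806 and 0.555 CPM in AUF1 total libraries and 0.162 and 0.843 CPM in WT total libraries, with 0.497 and 0.442 CPM in AUF1 polysomes and 0.199 and 0.349 CPM in WT polysomes. Low levels of Atp5g1, Atp5g2 and Atp5l must be read with their copies in mind, because each has a transcript elsewhere in the annotation that matches its coding sequence at 95% identity or more, and such reads may have been dropped or split. Atp5l, subunit g, had at most 0.527 CPM in any library and 8 such copies, 7 of them pseudogenes. Its values, -0.15 ± 0.85 and -0.84 ± 0.92, were the lowest of complex V and could not be told from 0.

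**Figure D3:**
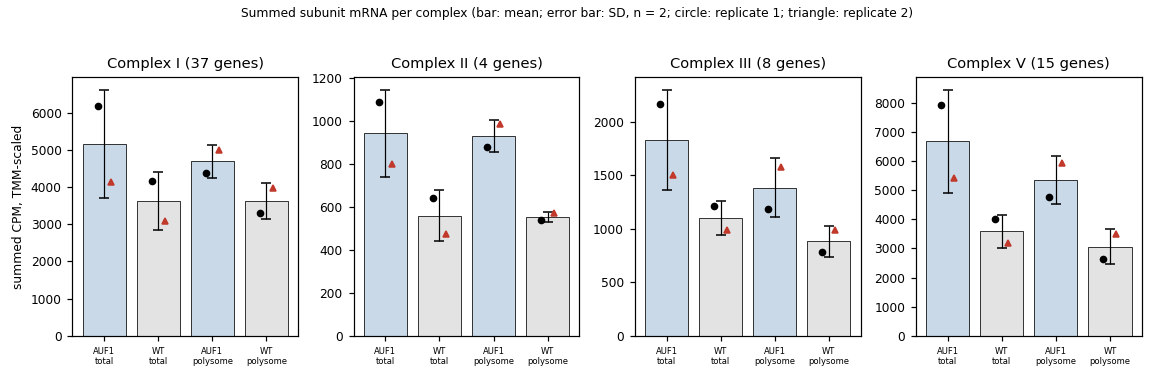
Summed CPM of the subunit mRNAs of each complex (y axis from 0) in AUF1 total, WT total, AUF1 polysome and WT polysome RNA; bars are means, error bars SD (n = 2), circles replicate 1, triangles replicate 2. The AUF1 mean is above the WT mean in all 8 pairs, and the complex I total RNA libraries overlap (6190 and 4126 CPM in AUF1, 4166 and 3079 CPM in WT).

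Summed per complex, the levels differed less for complex I than for the others. Complex I came to 6190 and 4126 CPM in AUF1 total libraries, against 4166 and 3079 CPM in WT total libraries, a ratio of means of 1.42. On polysomes it was 4369 and 5008 CPM in AUF1 cells, against 3291 and 3960 CPM in WT cells, a ratio of 1.29. Ratios for complexes II, III and V were 1.68, 1.67 and 1.86 in total RNA and 1.68, 1.57 and 1.75 on polysomes. For complex V, AUF1 total libraries had 7925 and 5412 CPM, against 3992 and 3177 CPM in WT, and AUF1 polysome libraries had 4767 and 5936 CPM, against 2635 and 3482 CPM in WT. Whether complexes differ from each other was not tested. These sums are carried by the abundant members, such as Atp5b.

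Subunit mRNAs with longer coding sequences tended to have larger differences. Over 63 subunits, log2 coding length and the AUF1 difference had a Pearson r of 0.44 and Spearman rho of 0.50 in total RNA, and 0.61 and 0.66 on polysomes, a description across genes that share the same libraries. Over 11990 tested genes with a coding length, r was 0.017 in both fractions and rho -0.017 and -0.004. For the 11 subunits with over 1000 coding bases the medians were 0.92 in total RNA and 0.99 on polysomes. They were 0.77 and 0.77 for 9 subunits of over 600 and up to 1000 bases, 0.48 and 0.39 for 30 of over 300 and up to 600, and 0.45 and 0.19 for 13 of up to 300 bases. All tested genes in the same classes had medians between -0.07 and 0.05. The subunits with over 1000 coding bases include catalytic and core ones, such as Atp5b, Atp5a1, Ndufv1, Uqcrc1 and Sdha, but also the accessory Ndufa9 and Ndufa10. Core subunits Ndufs3, Ndufs7, Ndufs8 and Ndufv2 and the iron-sulfur subunits Sdhb and Uqcrfs1 are shorter than that. The parts of length and role in these differences were not tested. Ndufv3, with 1404 coding bases, was an exception at 0.28 ± 0.38 and 0.05 ± 0.38.

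**Figure D4:**
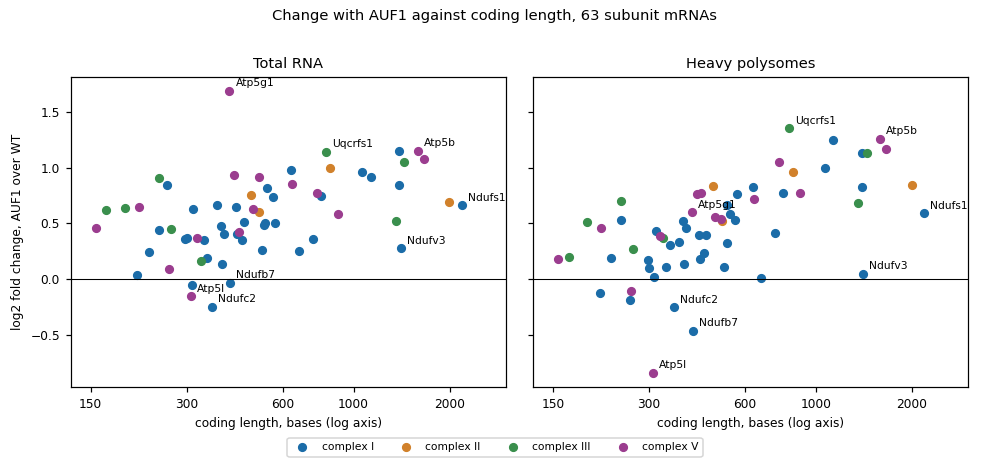
Log2 fold change of the 63 tested subunit mRNAs, AUF1 over WT (y axis), against coding length in bases (log x axis), for total RNA on the left and heavy polysomes on the right, coloured by complex. Points rise from left to right in both panels (rho 0.50 and 0.66), with Atp5g1 above and Ndufv3 below their neighbours in total RNA.

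AUF1 is known for AU-rich sites, so the pentamer AUUUA was counted in annotated 3′ untranslated regions, a description added after the data were seen. It occurred in 27 of 63 subunits (42.86%), against 66.27% of 11764 tested genes. Subunit regions were short, with a median of 153 bases against 983 over all tested genes, and per kb held 2.20 pentamers against 1.81. The most were found in Sdhc (7), Ndufv2 (6), and Atp5b, Ndufb2, Ndufs4 and Sdhd (4 each). Counts refer to the protein-coding transcript with the longest coding part, and among equals the longest transcript. For Atp5g1, Ndufb2 and Sdhc that gave regions of 4252, 4012 and 2636 bases. The value per kb pools all regions, so such long ones weigh most in it. Which transcripts these cells use was not tested. The 27 subunits with a pentamer had median log2 fold changes of 0.63 in total RNA and 0.59 on polysomes, and the 36 without had 0.48 and 0.33. All genes with and without a pentamer had -0.06 and 0.14 in total RNA and -0.005 and 0.014 on polysomes.

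The AUF1 difference was not detectably unlike between polysome and total RNA for any subunit. The interaction, the AUF1 difference on polysomes minus that in total RNA, had a median of -0.08 over the subunits, against -0.02 over all genes. None passed in edgeR with or without the block or in DESeq2, where 0% of all genes were called, and 0 of 63 had an unadjusted p under 0.05, against 0.122% of all genes. Values ran from -1.09 ± 0.79 for the scarce Atp5g1 to 0.35 ± 1.12 for Atp5g2, and for Uqcrfs1 and Atp5f1 were 0.21 ± 0.42 and 0.28 ± 0.40. With a median SE of 0.51, only large differences could have been seen. The sign of the median turned without AUF1 total replicate 1 (0.11), AUF1 polysome replicate 1 (0.06) or WT polysome replicate 2 (0.11).

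Polysome RNA was also set against total RNA within each genotype. In AUF1 cells the subunits' median was -0.17, against -0.02 over all genes, and in WT cells -0.05, against 0.02. The replicates went opposite ways. In AUF1 cells the median was -0.54 within replicate 1 and 0.29 within replicate 2, and in WT cells -0.40 and 0.31. Over all genes these medians were -0.12 and 0.03 in AUF1 cells and 0.004 and 0.01 in WT cells, so the split was larger for the subunits. None was called in edgeR with or without the block or in DESeq2 (0% of all genes in edgeR without the block), and 1 had an unadjusted p under 0.05, the same gene in each genotype, lower on polysomes, where 3.11% and 2.46% of all genes were lower at that p in AUF1 and WT cells. Lower polysome libraries without overlap were found for 11 subunits in AUF1 cells (13.4% of all genes) and 9 in WT cells (14.9%).

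That gene was Uqcr10, a small complex III subunit. In AUF1 cells it had 55.5 and 94.0 CPM in polysomes, against 252 and 163 CPM in total RNA. In WT cells it had 47.2 and 57.9 CPM in polysomes, against 140.5 and 126 CPM in total RNA. The polysome libraries were below the total libraries in both genotypes and both replicates, by 1.47 ± 0.37 and 1.34 ± 0.36 on the log2 scale (log2 fold changes -1.47 and -1.34, unadjusted p = 0.00597 and 0.00921, both adjusted p = 1). Uqcr10 has a near-identical copy in the table (4930481A15Rik, 96.13% identity). Other short mRNAs lay low as well, with Ndufc1 at -0.99 and -0.93, Atp5k at -0.90 and -0.71 and Atp5e at -0.81 and -0.54 in AUF1 and WT cells, and none passed. Of the 13 subunits of up to 300 coding bases, 13 were below 0 in AUF1 cells and 12 in WT cells, with medians of -0.55 and -0.19, and the 195 tested genes of that length had -0.17 and -0.05. For these 13 the lower values lay mostly in replicate 1. Their medians within replicates 1 and 2 were -1.016 and -0.024 in AUF1 cells and -0.555 and -0.024 in WT cells. Only 7 in AUF1 cells and 6 in WT cells were below 0 in both replicates. Subunits with over 1000 coding bases were low too, with medians of -0.44 and -0.48. Within replicates 1 and 2 their medians were -0.728 and -0.078 in AUF1 cells and -0.629 and -0.255 in WT cells.

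**Figure D5:**
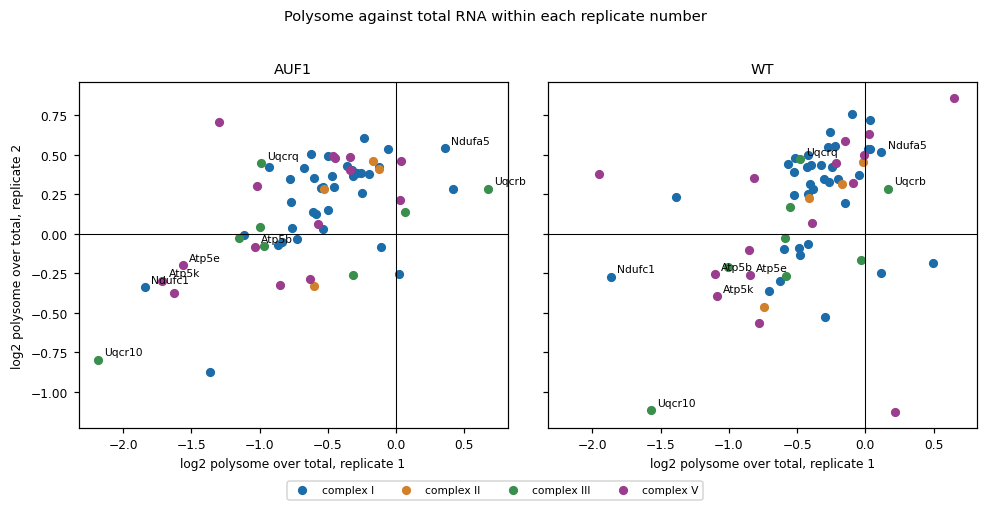
Log2 polysome over total RNA for the 63 tested subunit mRNAs within replicate 1 (x axis) and within replicate 2 (y axis), in AUF1 cells on the left and WT cells on the right, coloured by complex. The medians are -0.54 and -0.40 along the replicate 1 axis and 0.29 and 0.31 along the replicate 2 axis; Uqcr10 is low in both replicates of both genotypes.

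Within groups, replicates 1 and 2 differed more than 2-fold for 9 subunits in AUF1 total RNA (14.29%, against 34.82% of all genes), 10 in WT total RNA (15.87%, against 22.93%), and 7 each in AUF1 polysomes (11.11%, against 22.34%) and WT polysomes (11.11%, against 19.6%). Ndufc2, Ndufb5, Uqcrc1 and Ndufa13 were higher in replicate 1 by means of 1.65, 1.25, 1.19 and 1.12 on the log2 scale over the groups. The subunits' median difference, replicate 1 over replicate 2, was 0.51 in AUF1 total and 0.24 in WT total RNA, but -0.33 in AUF1 and -0.49 in WT polysomes. Which subunits were relatively high in replicate 1 was similar between groups, with Pearson correlations of 0.62 to 0.85 over subunits and 0.62 to 0.81 over all genes, a description across genes.

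Levels per length ranged widely among the subunit mRNAs. Per coding kilobase, averaged over the libraries, Atp5e had 1473 CPM, Atp5g3 1468 and Atp5d 1219, followed by Uqcrq, Uqcrh and Uqcr11 at 1093, 1078 and 1035. Per exonic kilobase the order began with Atp5b at 327 CPM, then Atp5d at 319, Ndufb9 at 291, Atp5g3 at 285 and Ndufa2 at 282. Between neighbours the gap was smaller than the lesser of their SDs over all 8 libraries for 57 of 62 pairs in the exonic order and 56 of 62 in the coding order, the first exceptions being Sdha over Ndufa12 and Atp5b over Ndufb7 (a comparison added after the data were seen). Ndufs1 had 23.5 CPM per coding kilobase, against 71.9 for Ndufs3, 85.5 for Ndufv1 and 199 for Ndufs8, other core subunits.

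Genes of related pathways were read in the same way. Among 14 tested complex IV subunits the medians were 0.60 in total RNA and 0.48 on polysomes. Cox8b, a muscle form, was called in total RNA by edgeR without the block, with 32.0 and 20.8 CPM in AUF1 cells, against 2.35 and 2.60 CPM in WT cells (3.41 ± 0.45, adjusted p = 0.041). With the block Cox8b, Cox6a2 and Cox7a1, all heart or muscle forms, were called in both fractions, and DESeq2 also called 3 in each. Cox6a2 stood at 2.82 ± 0.50 and 2.66 ± 0.49 and Cox7a1 at 2.02 ± 0.38 and 2.04 ± 0.38. Of 12 citric acid cycle genes edgeR called 0 without the block, and with it 7 were higher in total RNA and 8 on polysomes, while DESeq2 called 5 and 4 higher. Their medians were 0.89 and 0.99, with Idh3a, a subunit of isocitrate dehydrogenase, at 0.96 ± 0.24 and 1.51 ± 0.24. Over all genes the block called 6.99% higher in total RNA and 6.69% on polysomes, and DESeq2 3.51% and 3.25%.

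Mitochondrial ribosome genes (76 tested) had medians of 0.43 and 0.33, with 0 called by edgeR without the block, 1 and 4 higher with it, and 0 and 1 higher by DESeq2. As a share of the list these block counts lie below the 6.99% and 6.69% of all genes. Even so, 72 of the 76 log2 fold changes were above 0 in total RNA and 63 on polysomes. Complex I assembly factors (14 tested of 16) had 0.14 and 0.35. Of these, with the block, Ndufaf6 was higher (0.97 ± 0.28) and Ndufaf3 lower (-1.04 ± 0.32) on polysomes, and 0 were called in total RNA. DESeq2 called 0 in total RNA and 1 higher on polysomes. Assembly factors of complexes II (2 tested) and III (3 tested) and the assembly factors and inhibitor of complex V (4 tested) had 0 calls in edgeR with or without the block, with complex V factors at medians of 0.15 and -0.04. The 13 tested regulators of mitochondrial biogenesis had medians of 0.15 and 0.25 and 0 calls with or without the block. Among them Ppargc1b, a coactivator, stood at 1.08 ± 0.35 and 0.94 ± 0.35 (adjusted p = 0.240 and 0.293). Mitochondrially encoded subunits had 0 lines in the count table and were not analysed here.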

How the data were processed

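The authors deposited raw counts per gene symbol for 8 libraries. Per the submitters' processing notes, the build was mm10 and the tools included STAR, SAMtools, Trimmomatic, cutadapt and Bowtie. The sources used here give no versions, counter, strandedness or annotation. Libraries used 500 ng RNA, per the labels. The 5 summary lines, with reads outside genes equal to 6.04% to 7.23% of counts and ambiguous reads to 0.254% to 0.389%, were left out. Positions and coding lengths come from GENCODE M21, promoters from RefSeq. Without known strand, reads of 25 members with exonic overlap cannot be told apart from those of the neighbour.

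edgeR 4.0.16 (R 4.3.3) was run with filterByExpr (13167 genes), TMM and the quasi-likelihood test, fitting each group's mean (4 residual degrees of freedom), two-sided, with Benjamini-Hochberg adjustment over all genes of each of 5 comparisons and a threshold of 0.05. Each SE was obtained by dividing the log2 fold change by the root of its F statistic. Within-replicate values use log2 CPM with a prior count of 2. The scripts were tested on simulated data with known changes. Alternatives were a replicate block (3 degrees of freedom), DESeq2 1.42.0, RLE scaling, no filter (17229 genes), each library left out, and members without a near-identical copy (95% identity over 80% of the coding sequence, blastn 2.17.0).

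Members, lists and tests were chosen with earlier results of these data known. Values per library are given for members called with or without the block (up to 8 per comparison), the extremes of each complex and 15 preset members; Ndufs8, Ndufb5, Ndufb7 and Uqcr10 were added, and other members given by fold change alone were chosen, after their values were seen. Up to 4 genes of each related list could be named. The titles number replicates 1 and 2, while the descriptions call the second one Rep3; nothing says what a number shares, so the main model has no block. The values of 1 member are not reported here, though counts and medians include it.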

Additional observations from a re-analysis of the deposited data

How the results depend on the processing

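The medians of the AUF1 differences kept their sign in every alternative. Leaving out each library, they ran from 0.241 to 0.768 in total RNA and from 0.278 to 0.726 on polysomes, and relative to the all-gene median, which itself moved by up to 0.106, from 0.342 to 0.731 and from 0.213 to 0.753. Counts of members called stayed at 0 without any 1 library, with RLE scaling and with no filter, and DESeq2 called 1 and 2 higher. The replicate block called 11 in total RNA and 12 on polysomes. Each number is shared by 4 libraries and no label says what they share, so the block is a hint from the data; replicate differences correlated between groups at 0.624 to 0.848 over members. Medians near 0 turned sign, and the cause was not tested. The interaction ran from -0.315 to 0.112, with 0.112 without AUF1 total replicate 1, 0.062 without AUF1 polysome replicate 1 and 0.106 without WT polysome replicate 2. Polysome against total RNA ran from -0.41 to 0.125 in AUF1 cells (0.125 without AUF1 total replicate 1) and from -0.252 to 0.137 in WT cells (0.137 without WT total replicate 1, 0.066 without WT polysome replicate 1). Over the 48 members without a near-identical copy, chosen after seeing the data, the AUF1 medians were 0.557 and 0.52. Counting error is small for most members and larger for Atp5g1, Atp5g2, Atp5l and Ndufa4l2, which have few counts. The spread between replicates also enters their SEs. Having 2 libraries a group that differ by replicate number limits every comparison.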
